A study of Mus musculus with 2 samples.

Results

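Transcripts of 73 solute carrier genes were followed through the cells of the mouse choroid and retinal pigment epithelium (RPE). They are all genes named Slc2a (12 genes), Slc6a (21), Slc7a (15), Slc16a (14) or Slc38a (11) plus a number, of 32285 genes counted. The opposite-strand genes Slc6a19os and Slc7a6os were dropped by that rule. The tissue came from the eyes of 8-week-old wild-type mice of the outbred ICR strain, with no treatment or genotype compared. Single-cell libraries were made in 2 pools, each from 1 male and 1 female mouse, so a library averages a pair of animals (n = 2 libraries). Choroid is the vessel bed outside the retina, and the RPE is the sheet of epithelial cells between that bed and the photoreceptors.

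These families move the fuels and building blocks of metabolism across the plasma membrane. Slc2a genes encode the facilitative hexose carriers, and Slc6a genes encode sodium- and chloride-coupled carriers for neurotransmitters, amino acids, taurine and creatine. Slc7a genes encode cationic amino acid transporters and the light chains of heteromeric exchangers, which need a heavy chain such as that encoded by Slc3a2 to reach the membrane. Slc16a genes encode the monocarboxylate transporters, some of which carry lactate with a proton and use basigin or embigin as a partner, and Slc38a genes encode carriers of small neutral amino acids such as glutamine. The RPE hands glucose from the choroidal blood to the photoreceptors and carries their lactate the other way.

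Barcodes were kept with 1000 or more UMIs, 500 or more genes and a mitochondrial share of no more than 20%, 8497 in library 1 and 13401 in library 2, with medians of 7842 and 8253 UMIs. The libraries held 91741168 and 149570817 UMIs in all. Each barcode was placed in 1 of 6 classes by the marker set with the most UMIs, at least 5: fibroblast (Dcn, Col1a2, Col3a1), melanocyte (Dct, Pmel, Mlana), RPE (Rpe65, Rgr, Rlbp1), endothelial (Cdh5, Pecam1, Egfl7), mural (Rgs5, Myh11, Acta2) and macrophage (C1qa, Csf1r, Cd68). The fibroblast class held 4095 and 6278 barcodes, the melanocyte class 1407 and 2249, the RPE class 304 and 902, the endothelial class 465 and 609, the mural class 1118 and 1713 and the macrophage class 430 and 866. The other 678 and 784 barcodes had no class. Just inside the marker minimum, 130 and 129 barcodes had exactly 5 marker UMIs, and just outside it 129 and 122 had 4. The libraries shared 31 barcode sequences.

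The class names were checked with markers that the rule did not use. In both libraries, 4 of 4 fibroblast, 4 of 4 melanocyte, 4 of 5 RPE, 5 of 5 endothelial, 4 of 5 mural and 5 of 5 macrophage markers were highest in their own class, and the exceptions were Best1 for the RPE and Cspg4 for mural cells. The melanocyte class of library 2 stood apart: the summed CPM of 5 RPE markers there was 2349, against 331 in library 1 and 68511 and 68894 in the RPE class. Scrublet marked 7.75% and 12.1% of the melanocyte class and 4.61% and 9.20% of the RPE class as doublets, and these barcodes were kept. Levels of RPE transcripts in the melanocyte class are therefore given per library, and the part of free RNA and doublets in them was not tested.

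UMIs were summed per class and library, which gave 12 sums, and the levels below are CPM, UMI counts scaled to the total of each sum with TMM factors. The chemistry reads the 3′ end of a transcript, so CPM were not divided by gene length. Of the 73 transporter genes, 49 had enough UMIs to be tested, 8 of Slc2a, 10 of Slc6a, 10 of Slc7a, 12 of Slc16a and 9 of Slc38a. Each class was compared with the equal-weighted mean of the other 5 in edgeR's quasi-likelihood test, and a gene was called at an adjusted p (Benjamini-Hochberg over all 15420 genes tested) under 0.05 and a log2 difference of at least 1 in size. A gene's highest class was then compared with its next class in the same fit, and these 2 classes were picked from the same data.

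The RPE class had the most transporter calls. There, 22 of 49 (44.9%) were higher than the mean over the remaining classes, against 26.1% of all genes, and 13 (26.5%) were lower, against 24.6%. In the melanocyte class 12 (24.5%) were higher, against 14.5% of all genes, and 8 (16.3%) lower, against 11.3%, a count that was 16 without the melanocyte sum of library 2. In the macrophage class 12 (24.5%) were higher, against 19.5%, and 11 (22.4%) lower, against 21.3%. The share in the endothelial class was 11 (22.4%) higher, against 15.4%, and 14 (28.6%) lower, against 20.8%. In the fibroblast class 11 (22.4%) were higher, against 18.2%, and 4 (8.16%) lower, against 8.74%, and in the mural class 10 (20.4%) were higher, against 14.6%, and 8 (16.3%) lower, against 10.4%. The lower calls in the fibroblast class and those in the RPE and macrophage classes thus lay near the background of all genes. The median log2 difference over the 49 genes was 0.71 in the RPE, 0.10 in the melanocyte, 0.04 in the fibroblast, -0.27 in the mural, -0.32 in the endothelial and -0.76 in the macrophage class, while that of all genes lay between -0.17 and -0.01.

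**Figure D1:**
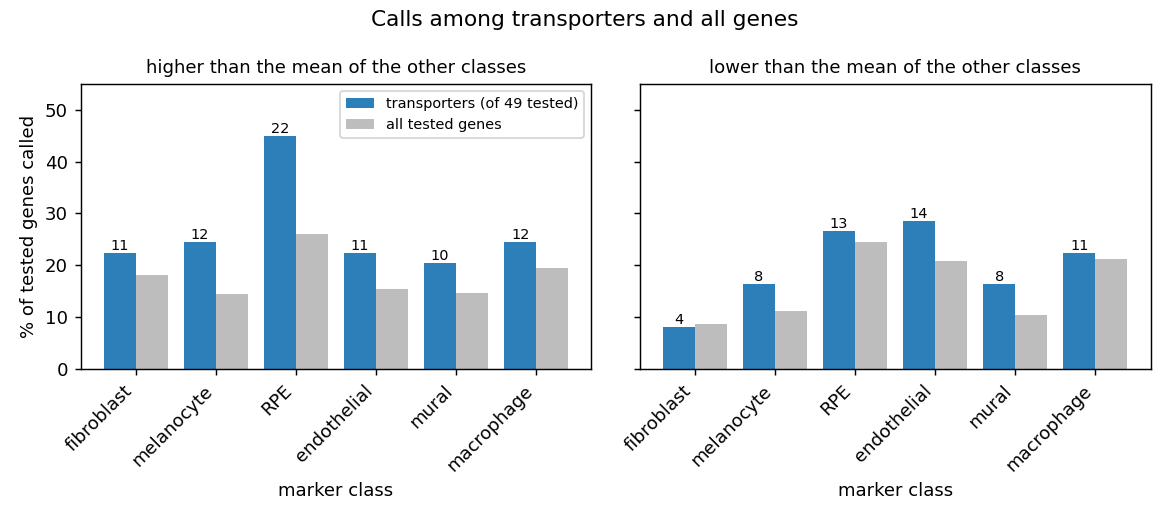
Percent of the 49 tested transporter genes and of all 15420 tested genes called higher or lower in each marker class against the mean of the other 5. The RPE class has the tallest bar, with 44.9% of the transporter genes higher against 26.1% of all genes.

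The highest class was the RPE for 15 of the 49 genes, the macrophage class for 11, the fibroblast class for 8 and the melanocyte, endothelial and mural classes for 5 each. It was called above the next class for 28 genes (57.1%), against 35.3% of all genes. Of these 28, 11 were highest in the RPE, 6 in the macrophage, 5 in the fibroblast, 3 in the mural, 2 in the melanocyte and 1 in the endothelial class. For 46 of the 49 genes both libraries gave the same highest class.

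**Figure D2:**
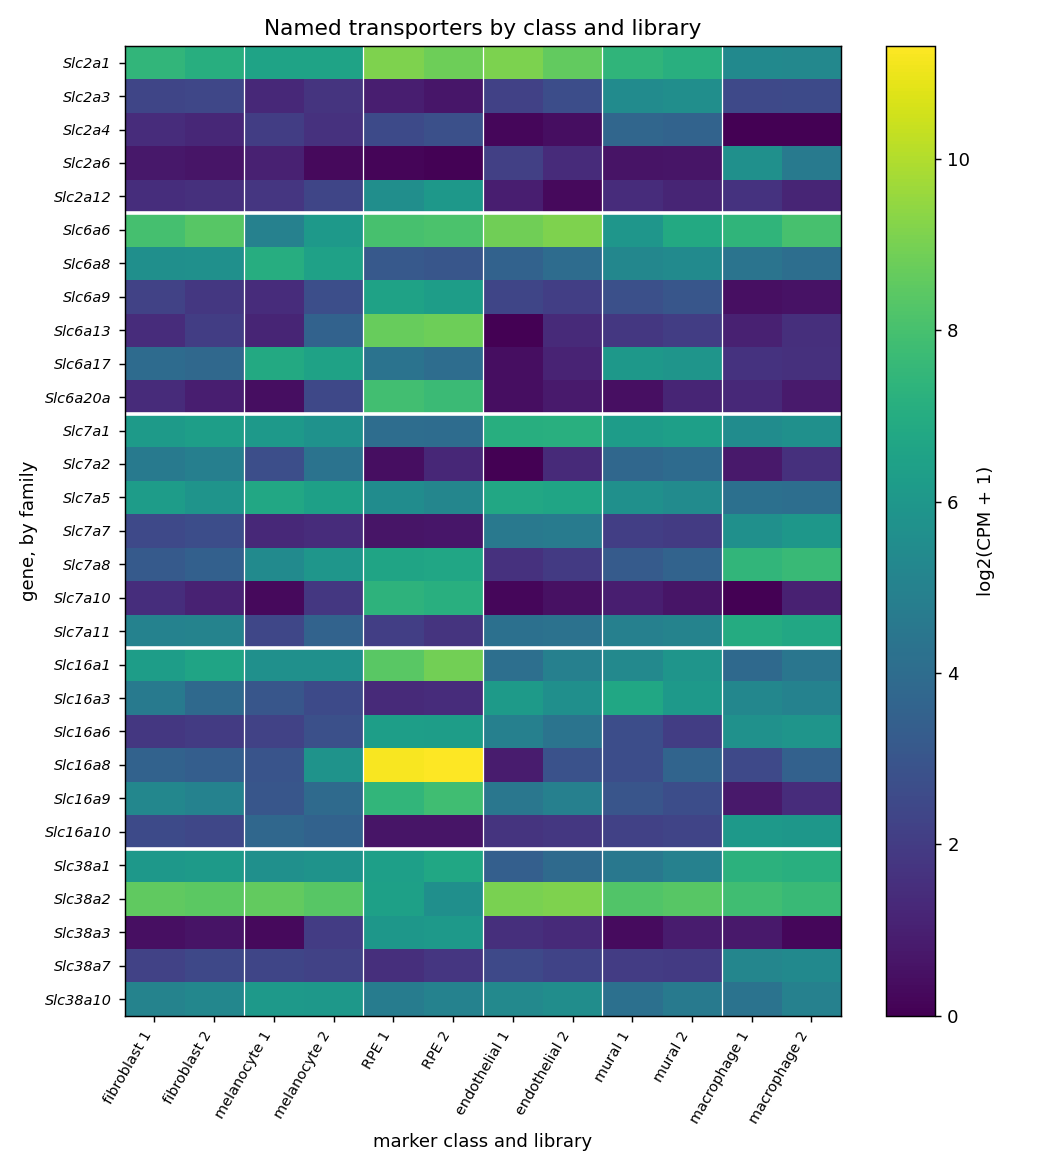
Levels of 29 transporter genes in the 6 marker classes, with a column for each class and library and a colour for log2(CPM + 1), grouped by family. Every family has a gene that is highest in the RPE class, which in Slc38a is Slc38a3, while Slc38a2 is lowest there. In Slc7a and Slc38a, the macrophage class is highest for Slc7a7, Slc7a8, Slc7a11, Slc38a1 and Slc38a7.

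Promoters of 3 genes are shown because the members that stood highest in the RPE include the most abundant one (Slc16a8), its widely expressed relative (Slc16a1) and the amino acid carrier of these families with the highest level there (Slc6a13). They are RefSeq sequences on GRCm38.p6, 5′ to 3′ on the gene's strand, from 250 bases before the most upstream RefSeq start to no further than the base before the annotated gene, and capitals mark matches to the E-box CACGTG, to the related E-box CATGTG or to the core TAATCC on either strand. Slc16a8 lies on the minus strand of chromosome 15, and the bases shown are chr15:79254762-79254998. Slc16a1 lies on the plus strand of chromosome 3 (chr3:104638414-104638663), and Slc6a13 on the plus strand of chromosome 6 (chr6:121300038-121300226).
Slc16a8: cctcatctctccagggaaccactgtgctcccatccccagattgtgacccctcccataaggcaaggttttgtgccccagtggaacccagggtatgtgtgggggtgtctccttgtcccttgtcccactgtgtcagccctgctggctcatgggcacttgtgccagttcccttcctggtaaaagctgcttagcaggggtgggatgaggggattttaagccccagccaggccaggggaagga
Slc16a1: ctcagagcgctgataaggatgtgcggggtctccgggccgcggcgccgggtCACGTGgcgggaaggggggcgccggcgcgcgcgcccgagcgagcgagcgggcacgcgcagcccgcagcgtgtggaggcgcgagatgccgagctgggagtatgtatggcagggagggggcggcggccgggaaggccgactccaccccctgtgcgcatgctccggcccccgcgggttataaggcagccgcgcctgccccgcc
Slc6a13: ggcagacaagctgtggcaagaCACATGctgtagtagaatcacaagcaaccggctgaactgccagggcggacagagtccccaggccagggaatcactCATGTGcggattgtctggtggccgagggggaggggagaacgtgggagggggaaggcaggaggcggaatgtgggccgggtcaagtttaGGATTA
These E-boxes are among those read by the pigment-cell factor MITF, and the core TAATCC is read by OTX2, both regulators of the RPE. Of the 11 genes called above the next class in the RPE, 9 were in the RefSeq promoter table, and CACGTG lay within 250 bases before the start in 1 of them, CATGTG in 2 and TAATCC in 1. Over all 32851 promoter windows of that length these letters were found in 6.02%, 12.3% and 6.25%. At least 1 of the motifs was in 3 of the 9 windows, against 22.9% of all windows. A match is a description of the letters only, and 3′ counts do not tell which start was used.

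Among the proton-linked lactate carriers, Slc16a8 (MCT3) was highest in the RPE and low in every other class. It encodes the carrier known from the basal membrane of that epithelium (ENSMUSG00000032988, GENCODE M21 on GRCm38, chr15:79251014-79254761, minus strand). Its level in the RPE class was 2385 CPM in library 1 and 2557 CPM in library 2 (2471 ± 122 CPM, SD, n = 2). No sum of another class exceeded 56.1 CPM, the melanocyte class of library 2, and the melanocyte class of library 1 was at 6.79 CPM. Fibroblasts were at 10.9 and 9.52 CPM, mural cells at 5.44 and 11.4, macrophages at 4.71 and 10.4 and endothelial cells at 0.80 and 6.13. The log2 difference of the RPE to the melanocyte class was 6.69 ± 0.96 (SE, edgeR adjusted p = 0.00168), and to the mean of the other classes 8.22 ± 0.52 (edgeR adjusted p = 1.96e-05). With free RNA removed from the sums, the first difference no longer passed (8.96, edgeR adjusted p = 0.290). Under this setting the call of Slc16a8 as higher than the mean of the other classes was lost as well. The melanocyte sums then held 0 Slc16a8 UMIs in library 1 and 954 in library 2.

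The low levels of Slc16a8 outside the RPE went with those of other RPE transcripts. In the melanocyte class of library 2, Slc16a8 stood at 2.19% of its RPE level, beside 2.6% for Ttr, 2.47% for Rdh5, 2.63% for Lrat and 4.86% for Otx2, RPE markers outside the class rule. The fifth such marker, Best1, stood at 38.6% there, of an RPE level under 1 CPM in both libraries. Melanocyte-class barcodes whose winning marker set held at least 90% of the marker UMIs had Slc16a8 at 1.2 and 6.76 raw CPM. In the whole class Slc16a8 stood at 6.96 and 68.9 raw CPM. The profile of barcodes with at most 100 UMIs, which samples free RNA, held Slc16a8 at 185 and 319 CPM. After thinning every cell to 2000 UMIs, 96.6% (exact 95% interval 93.9 to 98.4) and 98.7% (97.7 to 99.4) of RPE cells had a Slc16a8 UMI, and in the other classes at most 3.15% did. Unthinned, these shares were 99.7% and 99.6% in the RPE and at most 5.91% elsewhere, with median depths of 26253.5 and 19066 UMIs in the RPE and 11464 and 10078 in the melanocyte class.

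Slc16a1 (MCT1), the widely used lactate and pyruvate carrier, was counted in every class and highest in the RPE (ENSMUSG00000032902, chr3:104638668-104658462). Its level was 344 and 486 CPM in the RPE, 77.1 and 96.7 in fibroblasts, 49.8 and 50.3 in melanocytes and 39.8 and 58.7 in mural cells. Endothelial cells (16.6 and 29.8 CPM) and macrophages (13.8 and 20.6 CPM) held the least and were both called lower. The free RNA profile held Slc16a1 at 73.0 and 101 CPM, above both of these classes, and its part in their values was not tested. The RPE values lay above all others, with a log2 difference to fibroblasts of 2.24 ± 0.16 (edgeR adjusted p = 1.64e-07). A Slc16a1 UMI was found in 44.1% and 59.0% of thinned RPE cells and in 13.7% and 20.1% of thinned fibroblasts, and unthinned in 92.1% and 93.9% and in 40.3% and 52.6%.

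Slc16a3 (MCT4), the low-affinity carrier typical of glycolytic cells, had the reverse layout. It stood at 107 and 68.8 CPM in mural cells, 71.7 and 49 in endothelial cells and 36.9 and 31.7 in macrophages, and all 3 classes were called higher. The RPE had 1.51 and 1.71 CPM and melanocytes 7.08 and 4.82 CPM, both called lower. Mural values lay above endothelial values within each library but overlapped with them across libraries. Their log2 difference of 0.54 ± 0.16 did not reach the size required (edgeR adjusted p = 0.0132). Slc16a7 (MCT2), the high-affinity carrier, was sparse, at 10.9 and 11.6 CPM in macrophages and 5.96 and 9.15 CPM in mural cells, both called higher.

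The mix of these 4 carriers was then described for each class. Slc16a8 made up 87.3% and 83.9% of their summed CPM in the RPE (2733 and 3048 CPM in total), with Slc16a1 at 12.6% and 15.9%. In fibroblasts Slc16a1 made up 68.2% and 79.0%. In endothelial cells Slc16a3 made up 80.1% and 57.5%, in mural cells 67.7% and 46.5% and in macrophages 55.7% and 42.7%. The melanocyte class gave 2 different mixes, with Slc16a1 at 73.9% in library 1 and Slc16a8 at 47.9% in library 2, where RPE transcripts were high.

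**Figure D3:**
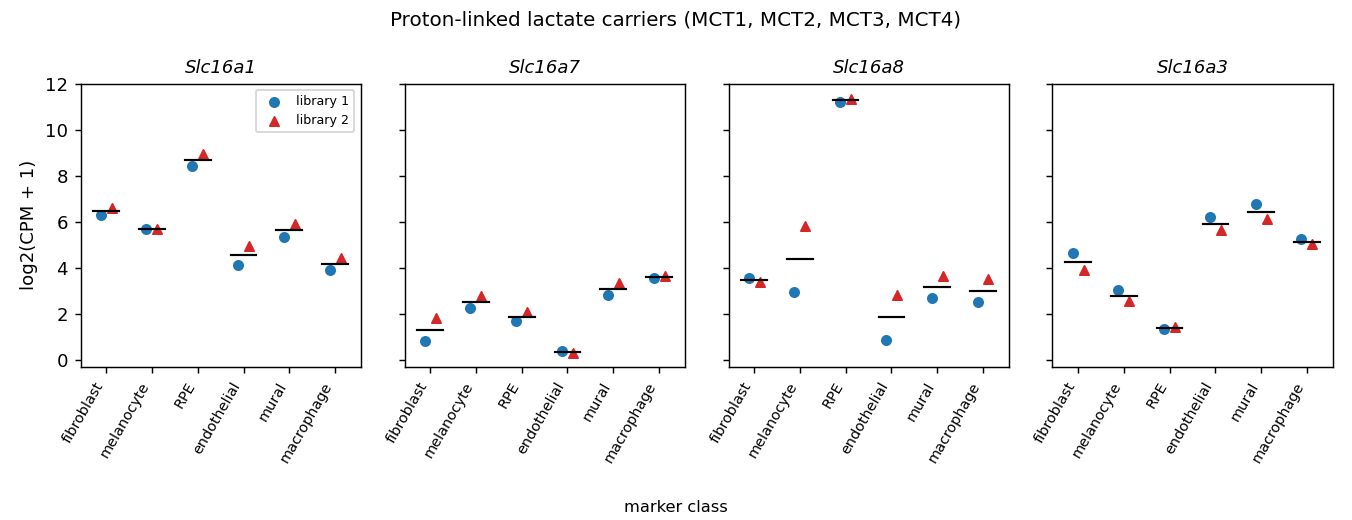
Level of the 4 proton-linked lactate carriers in the 6 marker classes, as log2(CPM + 1), with a circle for library 1, a triangle for library 2 and a bar at their mean. Slc16a8 and Slc16a1 are highest in the RPE class, where Slc16a3 is lowest.

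The other Slc16a genes carry other substrates, and several of them were also RPE transcripts. Slc16a9 (MCT9), linked to carnitine and urate, stood at 176 and 232 CPM in the RPE and 36.3 and 31.1 CPM in fibroblasts, a log2 difference of 2.57 ± 0.25 (edgeR adjusted p = 1.24e-05). Slc16a4 was at 14.4 and 16.7 CPM in the RPE and 6.88 and 8.44 in endothelial cells and was called above that class (edgeR adjusted p = 0.0194). Slc16a6 (MCT7), a ketone body carrier, stood at 81.2 and 79.1 CPM in the RPE and 52.2 and 58.2 in macrophages, which did not pass (log2 0.53 ± 0.24, edgeR adjusted p = 0.081). In all, 7 of 12 tested Slc16a genes were called higher in the RPE (among them Slc16a1, Slc16a4, Slc16a6, Slc16a8, Slc16a9 and Slc16a11). Another 2 were called lower (Slc16a3 and Slc16a10). These shares were 58.3% and 16.7%, against 26.1% and 24.6% of all genes. Slc16a11 stood at only 1.63 and 1.52 CPM in the RPE, and its fitted level was highest in macrophages.

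Slc16a10 (TAT1), the aromatic amino acid carrier, was a macrophage transcript. It stood at 66.3 and 62.8 CPM there, 12.9 and 10.8 in melanocytes and under 5 CPM in every other sum. Macrophages lay above melanocytes by a log2 of 2.45 ± 0.16 (edgeR adjusted p = 5.77e-08). Slc16a13, at 13.6 and 9.86 CPM, was the member that endothelial cells held above the next class, by a log2 of 3.61 ± 0.40 (edgeR adjusted p = 6.6e-06). Slc16a11 and Slc16a12 stayed under 4 CPM in every sum, and Slc16a5 and Slc16a14 were too sparse to test, with 2 and 34 UMIs in the 6 classes together.

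For glucose, the RPE and the endothelium shared the highest level of Slc2a1 (GLUT1), the carrier of the blood-tissue barriers (chr4:119108711-119137983, plus strand). Its level was 561 and 456 CPM in the RPE and 549 and 388 CPM in endothelial cells. Fibroblasts had 171 and 136 CPM, mural cells 167 and 139, melanocytes 93.7 and 93.9 and macrophages 40.2 and 37.5. With TMM scaling the RPE value lay above the endothelial value within each library, but the values overlapped across libraries. On raw CPM the endothelial class was instead the highest in each library, at 571 and 450. The log2 difference of the RPE and endothelial classes was 0.13 ± 0.13 (edgeR adjusted p = 0.459), and all 4 of their TMM-scaled values lay above the other classes. Both classes were called higher and the macrophages lower than the mean of the others. Among thinned cells, 53.9% and 54.7% of the RPE, 52.9% and 44.6% of the endothelial and 4.48% and 5.17% of the macrophage class had a Slc2a1 UMI, and unthinned 93.8% and 93.2%, 82.8% and 71.9%, and 19.3% and 19.2%.

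The other hexose carriers were highest in the mural, macrophage, fibroblast or RPE class. Slc2a3 (GLUT3), a high-affinity glucose carrier known from neurons, stood at 42.9 and 47.8 CPM in mural cells and 4.71 and 4.80 in macrophages, the next class. Its log2 difference was 3.28 ± 0.24 (edgeR adjusted p = 1.78e-07). Slc2a4 (GLUT4), the insulin-responsive carrier of muscle and fat, was also highest in mural cells, at 12.4 and 11.3 CPM against 4.88 and 5.73 in the RPE (log2 1.12 ± 0.25, edgeR adjusted p = 0.00243). No Slc2a4 UMI was counted in the macrophage class of either library, which allows up to 0.325 CPM (3 UMIs over both libraries, counting error only).

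Slc2a6 (GLUT6), a lysosomal member of the family, was a macrophage transcript at 49.6 and 24.5 CPM, with endothelial cells next at 3.36 and 1.64 CPM. The log2 difference was 3.88 ± 0.35 (edgeR adjusted p = 1.13e-06), although the macrophage values of the libraries lay apart. Barcodes of no class held Slc2a6 at 19.2 and 20.5 raw CPM, beside 35.9 and 20.5 raw CPM in macrophages. Slc2a12 (GLUT12) stood at 47.2 and 64.3 CPM in the RPE and 2.42 and 4.10 CPM in melanocytes, a log2 difference of 4.07 ± 0.26 (edgeR adjusted p = 6.09e-08). Slc2a10 (7.29 and 5.40 CPM) and Slc2a13, the myo-inositol carrier (8.60 and 11 CPM), were highest in fibroblasts and called above the next class. Slc2a8 was highest in the RPE at 9.65 and 11.9 CPM without such a call.

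Of the 8 tested Slc2a genes, 4 were called higher in the RPE (Slc2a1, Slc2a4, Slc2a8 and Slc2a12) and 3 lower (Slc2a3, Slc2a6 and Slc2a13), shares of 50% and 37.5% beside 26.1% and 24.6% over all genes. The Slc2a8 call lay at the threshold, with a log2 of 1.01. It was lost with doublets removed, 20 marker UMIs, a purity of 90%, RLE scaling, no replicate block or DESeq2. The lower call of Slc2a13 was lost with doublets removed and at that purity. Slc2a1 made up 89.6% and 84.3% of the summed Slc2a CPM in the RPE and 97.1% and 95.1% in endothelial cells. In mural cells its share was 71.1% and 66.4%, and in macrophages 39.1% and 48.6%, beside Slc2a6 at 48.2% and 31.7%. Slc2a2, Slc2a5, Slc2a7 and Slc2a9 were not tested, with 1 to 132 UMIs in the 6 classes.

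**Figure D4:**
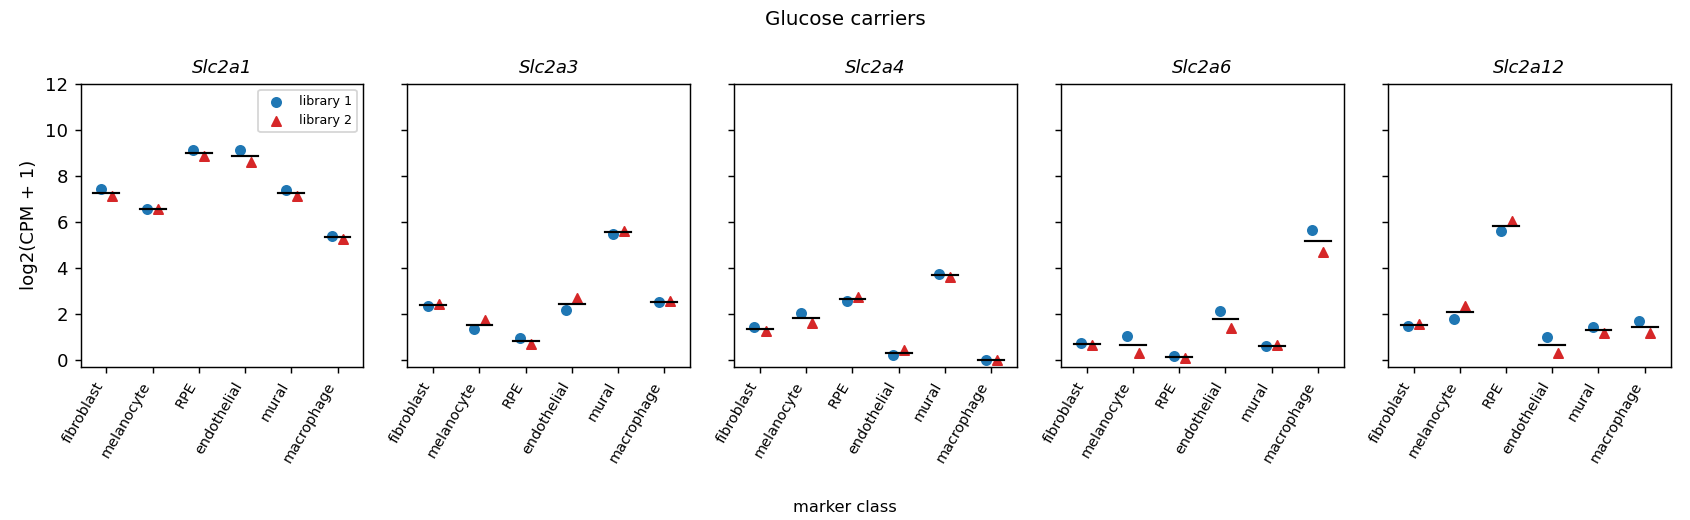
Level of 5 hexose carriers in the 6 marker classes, as log2(CPM + 1), with a circle for library 1, a triangle for library 2 and a bar at their mean. Slc2a1 is high in the RPE and endothelial classes, Slc2a3 and Slc2a4 peak in the mural, Slc2a6 in the macrophage and Slc2a12 in the RPE class.

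In the Slc6a family, 3 carriers were highest in the RPE by a wide margin. Slc6a13 (GAT2), a GABA and taurine carrier (ENSMUSG00000030108, chr6:121300227-121337733, plus strand), stood at 417 and 447 CPM in the RPE. The next class was the melanocyte class, at 1.27 and 10.7 CPM, which gave a log2 difference of 6.40 ± 0.71 (edgeR adjusted p = 0.000385). Slc6a20a (SIT1), a carrier of proline and other imino acids, was at 238 and 210 CPM in the RPE and at most 4.45 CPM in any other sum (log2 6.47 ± 0.77 over melanocytes, edgeR adjusted p = 0.000559). Its near copy Slc6a20b had 85 UMIs in the 6 classes, and reads could have been shared between the copies. As for Slc16a8, the highest value of both genes outside the RPE was in the melanocyte class of library 2, at 2.38% and 2.12% of the RPE level. With free RNA removed, neither difference passed any more, at 7.88 for Slc6a13 (edgeR adjusted p = 0.168) and 7.92 for Slc6a20a (edgeR adjusted p = 0.0939).

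Slc6a9 (GlyT1), the glycine carrier, stood at 91.4 and 78.0 CPM in the RPE and at 5.83 and 7.23 CPM in mural cells, a log2 difference of 3.68 ± 0.42 (edgeR adjusted p = 0.000112). Slc6a6 (TauT), which takes up taurine, was high in several classes. Its level was 466 and 562 CPM in endothelial cells, 255 and 334 in fibroblasts, 258 and 277 in the RPE and 167 and 262 in macrophages. Mural cells had 61.3 and 115 CPM and melanocytes 30.8 and 67.9 CPM, and both were called lower. The endothelial values lay above all others, but the log2 difference to fibroblasts of 0.82 ± 0.22 did not reach the size required (edgeR adjusted p = 0.0075), which it did at a marker purity of 90% (1.05). In thinned cells, 42.7% and 49.7% of the endothelial class had a Slc6a6 UMI and 4.38% and 8.07% of melanocytes, and unthinned 67.1% and 70.0% and 18.3% and 26.1%.

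Other Slc6a genes were highest in melanocytes. Slc6a8, the creatine carrier, stood at 131 and 89.4 CPM there, 49.2 and 50.4 in fibroblasts and 7.91 and 7.20 in the RPE, which was called lower. Melanocytes lay above fibroblasts by a log2 of 1.14 ± 0.18 (edgeR adjusted p = 0.000172). Slc6a17, a vesicular neutral amino acid carrier known from neurons, was at 117 and 91.6 CPM in melanocytes and 64.1 and 59.2 CPM in mural cells, while endothelial cells had 0.32 and 1.21 CPM. That difference of highest and next class was 0.75 ± 0.17 on the log2 scale and was not called (edgeR adjusted p = 0.0018). Slc6a15, a carrier of branched-chain amino acids and proline, reached 9.49 and 11.2 CPM in melanocytes and was called above the next class, and no UMI of it was counted in endothelial cells, which allows up to 0.195 CPM there. Slc6a2 and Slc6a7 were highest in fibroblasts, at up to 4.49 CPM, and Slc6a12 in mural cells, at up to 1.17 CPM. Of the 10 tested genes of the family, 5 were called higher in the RPE (Slc6a9, Slc6a12, Slc6a13, Slc6a15 and Slc6a20a) and 2 lower (Slc6a7 and Slc6a8). These shares were 50% and 20%, the second near the background, with all genes at 26.1% and 24.6%. Slc6a12 stood at only 0.35 and 0.59 CPM in the RPE, and its call was lost with DESeq2. The lower call of Slc6a7 was lost with free RNA removed. The 11 others were too sparse to test, among them Slc6a3, Slc6a4, Slc6a5, Slc6a11, Slc6a14, Slc6a16, Slc6a19 and Slc6a20b with 3 to 85 UMIs and Slc6a18 and Slc6a21 with none.

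Of the 10 tested Slc7a genes, 3 were highest in macrophages, 3 in fibroblasts, 2 in the RPE and 2 in endothelial cells. None was highest in melanocytes, where 4 (40%) were called higher, against 14.5% of all genes. Among these, Slc7a2 stood at 5.64 and 18.6 CPM in melanocytes and Slc7a4 at 1.61 and 3.03 CPM. Both calls were lost with a mitochondrial maximum of 10%. Slc7a10 (Asc-1), which exchanges small neutral amino acids such as serine and glycine, stood at 157 and 140 CPM in the RPE and at most 2.52 CPM in any other sum. The difference to melanocytes, the next class, was 6.57 ± 0.64 on the log2 scale (edgeR adjusted p = 0.000138). Slc7a4 was a weaker RPE transcript, at 12 and 13 CPM, and was called above its next class. Slc7a8 (LAT2), a neutral amino acid exchanger, stood at 176 and 203 CPM in macrophages, 98.3 and 103 in the RPE and 41.5 and 60.4 in melanocytes, and all 3 classes were called higher. Its macrophage and RPE values did not overlap, but their log2 difference of 0.91 ± 0.14 fell short of the size required (edgeR adjusted p = 9.57e-05). It reached that size with at least 20 marker UMIs per barcode (1.00) and with a marker purity of 90% (1.15).

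Macrophages also held the most Slc7a11 and Slc7a7. Slc7a11 (xCT), which imports cystine for glutathione synthesis, was at 123 and 108 CPM in macrophages, 31.3 and 32.5 in fibroblasts, 29.9 and 32.4 in mural cells and 3.26 and 2.30 in the RPE, which was called lower. Macrophages lay above fibroblasts by a log2 of 1.85 ± 0.31 (edgeR adjusted p = 0.000771). Barcodes of no class held Slc7a11 at 63.0 and 69.0 raw CPM, beside 88.7 and 90.9 raw CPM in macrophages. A UMI of it was found in 11.2% (exact 95% interval 8.28 to 14.7) and 10.2% (8.25 to 12.5) of thinned macrophages and in 0.678% (0.0822 to 2.43) and 0.116% (0.00295 to 0.647) of thinned RPE cells, and unthinned in 21.9% and 21.7% and in 5.26% and 2.88%. Slc7a7 (y+LAT1), which exports cationic amino acids, stood at 50.7 and 63.6 CPM in macrophages and 22.7 and 25.1 in endothelial cells (log2 1.26 ± 0.15, edgeR adjusted p = 1.67e-05).

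Endothelial cells shared their transcripts of this family with other classes. Slc7a1 (CAT1), the arginine and lysine carrier, was at 136 and 141 CPM in endothelial cells, from 43.8 to 81.8 CPM in 4 other classes and at 15.6 and 15.2 CPM in the RPE, which was called lower. Its log2 difference to mural cells was 0.81 ± 0.14, under the size required (edgeR adjusted p = 0.00037). Slc7a5 (LAT1), the carrier of large neutral amino acids such as tyrosine, stood at 111 and 100.3 CPM in endothelial cells. Melanocytes had 108 and 86.3 CPM of it. Endothelial values lay above those of melanocytes within each library but overlapped across libraries (log2 0.13 ± 0.12, edgeR adjusted p = 0.418). Both classes were called higher, and macrophages were called lower at 17.4 and 16.1 CPM. Slc7a2 (CAT2) was at 24.4 and 28.7 CPM in fibroblasts and 12.8 and 14.6 in mural cells (log2 1.00 ± 0.41, edgeR adjusted p = 0.0723), a difference that was called at 20 marker UMIs per barcode (1.17) and at a marker purity of 90% (1.48). Slc7a3 and Slc7a6 were highest in fibroblasts, and only Slc7a3, at 1.97 and 0.914 CPM, was called above the next class. Slc7a9, Slc7a13, Slc7a14 and Slc7a15 were not tested (3 to 29 UMIs), and Slc7a12 had no UMI.

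In the Slc38a family, Slc38a2 (SNAT2), which takes up alanine, serine and glutamine, was the most abundant transcript and was lowest in the RPE. Its level was 520 and 562 CPM in endothelial cells, 379 and 350 in fibroblasts, 385 and 330 in melanocytes, 304 and 333 in mural cells and 229 and 206 in macrophages. The RPE had 84.5 and 48.6 CPM and was called lower, while the endothelial cells were called higher. Endothelial cells lay above fibroblasts by a log2 of 0.58 ± 0.19, under the size required (edgeR adjusted p = 0.0195). Thinned cells with a Slc38a2 UMI made up 59.5% and 65.3% of the endothelial and 11.9% and 6.05% of the RPE class, and unthinned 90.1% and 92.3% and 49.7% and 31.5%.

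Slc38a3 (SNAT3), which moves glutamine in either direction, was the member of this family that stood out in the RPE. It was at 63.5 and 68.9 CPM there and at most 3.06 CPM in any other sum, with a log2 difference to melanocytes of 5.27 ± 0.55 (edgeR adjusted p = 0.000105). Slc38a1 (SNAT1) was at 155 and 140 CPM in macrophages, 83.7 and 107 in the RPE, 65.2 and 70.7 in fibroblasts and 9.92 and 14.0 in endothelial cells. Macrophages and the RPE were both called higher, and their log2 difference of 0.64 ± 0.15 was under the size required (edgeR adjusted p = 0.00341). Slc38a7, a lysosomal glutamine carrier, was a macrophage transcript at 35.1 and 40.7 CPM, with every other sum under 5 CPM (log2 3.19 ± 0.22 over endothelial cells, edgeR adjusted p = 1.12e-07).

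Slc38a10 was highest in melanocytes at 69.3 and 65.3 CPM, above endothelial cells (39.2 and 45.4 CPM) by a log2 of 0.68 ± 0.16, under the size required (edgeR adjusted p = 0.00284). Slc38a11 was a mural transcript, at 12.7 and 12 CPM and under 0.5 CPM in every other sum, with no UMI in endothelial cells or macrophages (log2 4.92 ± 0.35, edgeR adjusted p = 6.11e-07). Slc38a6 was highest in macrophages at 7.61 and 11.3 CPM and called above the next class. Slc38a4, at up to 1.51 CPM, and Slc38a9, at 3.63 to 7.74 CPM in all 12 sums, had no such call. Slc38a5 and Slc38a8 were not tested, with 13 and 113 UMIs.

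**Figure D5:**
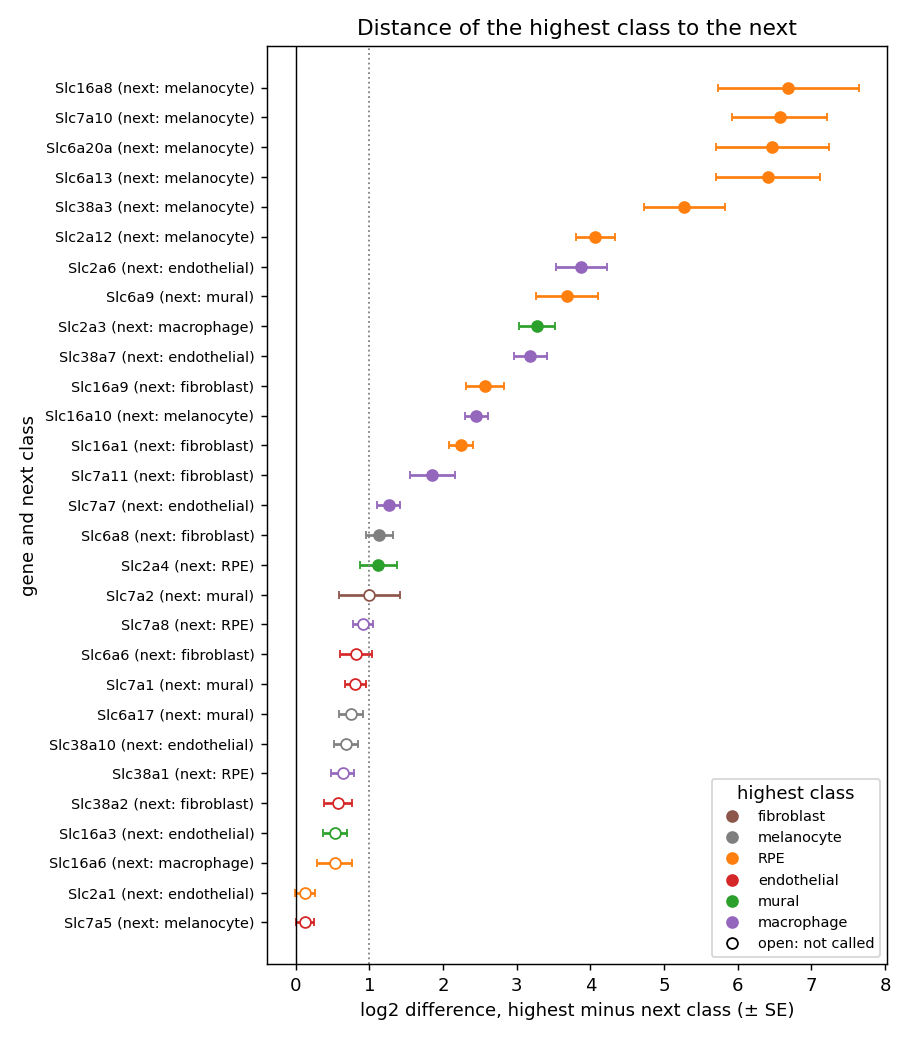
Log2 difference of the highest and the next class for 29 transporter genes, with bars for 1 SE, colour for the highest class and open symbols for genes not called. Slc16a8 leads with 6.69, and the 6 plotted genes with the widest gaps are all highest in the RPE class. Slc38a11, highest in the mural class with a difference of 4.92, is not plotted.

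The RPE genes among the transporters were spread over all 5 families: Slc16a8, Slc16a1, Slc16a9 and Slc16a4, Slc6a13, Slc6a20a and Slc6a9, Slc7a10 and Slc7a4, Slc38a3 and Slc2a12 were the 11 called above their next class. The macrophage genes were Slc16a10, Slc2a6, Slc7a7, Slc7a11, Slc38a6 and Slc38a7, and the mural genes were Slc2a3, Slc2a4 and Slc38a11. Over the 12 sums and all tested genes, the levels most like those of Slc16a8 were those of Rd3l (Pearson r = 0.997), Ermn (0.995), Ttr (0.994), Trpm3 (0.994) and Rlbp1 (0.993). These correlations describe 6 classes in the same 2 libraries, and Rlbp1 is one of the genes that defined the RPE class.

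Partner and pathway genes were followed in a list of 35, of which 32 were tested and 18 (56.2%) were called above the next class, against 35.3% of all genes. In the RPE 10 (31.2%) were higher and 12 (37.5%) lower, against 26.1% and 24.6% of all genes, so the higher calls lay near the background. Higher and lower calls numbered 9 (28.1%) and 1 (3.12%) in fibroblasts, against 18.2% and 8.74%, and 5 (15.6%) and 8 (25%) in melanocytes, against 14.5% and 11.3%. They numbered 7 (21.9%) and 10 (31.2%) in endothelial cells, against 15.4% and 20.8%, 7 (21.9%) and 6 (18.8%) in mural cells, against 14.6% and 10.4%, and 6 (18.8%) and 5 (15.6%) in macrophages, against 19.5% and 21.3%. Bsg (basigin), which brings MCT1, MCT3 and MCT4 to the membrane, stood at 8253 and 7811 CPM in the RPE (8032 ± 313 CPM, SD, n = 2) and between 240 and 837 CPM elsewhere. Its log2 difference to the next class was 3.36 ± 0.15 (edgeR adjusted p = 3.01e-09). Emb (embigin), the alternative partner, was instead highest in fibroblasts, at 251 and 384 CPM, and at 2.44 and 12.8 CPM in the RPE (log2 2.54 ± 0.44 over the next class, edgeR adjusted p = 0.00225).

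Cltrn (collectrin), a partner of some Slc6a carriers, stood at 830 and 785 CPM in the RPE and at most 30.5 CPM elsewhere (log2 5.76 ± 0.71, edgeR adjusted p = 0.000688). Slc3a2, the heavy chain that pairs with most Slc7a light chains, was high in every class, from 316 to 760 CPM, and its highest class was not called above the next (log2 0.20 ± 0.12, edgeR adjusted p = 0.173). Slc1a1, the glutamate and cysteine carrier, was at 405 and 504 CPM in the RPE and 84.3 and 96.6 CPM in endothelial cells (log2 2.32 ± 0.48, edgeR adjusted p = 0.00602).

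Lactate dehydrogenase genes were highest in different classes. Ldhb, whose subunit is typical of lactate-using tissue, stood at 1028 and 930 CPM in the RPE and 550 and 378 CPM in melanocytes (log2 1.10 ± 0.14, edgeR adjusted p = 2.99e-05), and both classes were called higher. Ldhd was highest in melanocytes at 10 and 6.68 CPM, also called higher there. Ldha was at 748 and 524 CPM in mural cells, 614 and 420 in fibroblasts and 613 and 486 in endothelial cells. Its mural and endothelial values overlapped across libraries, and their log2 difference of 0.20 ± 0.14 was not called (edgeR adjusted p = 0.258). The RPE had 143 and 138 CPM of Ldha and was called lower. Hk2 (hexokinase 2) was highest in fibroblasts at 745 and 440 CPM and at 19.7 and 19.2 CPM in the RPE, called lower. Gatm, the first enzyme of creatine synthesis, was a macrophage transcript at 410 and 427 CPM (log2 5.58 ± 0.31 over the next class, edgeR adjusted p = 3.39e-07). The sodium-coupled glucose carriers Slc5a1 and Slc5a2 were among those too sparse to test.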

How the data were processed

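Single-cell 3′ libraries (10x Chromium v3.1) were made from 2 pools of digested choroid and RPE, each from separate mice per the labels. With the library as a block, p-values rest on how far class differences varied between the 2 pools, not on the difference in level between the pools. Values are raw UMI counts as deposited, a matrix of genes by barcodes that the authors made with Cell Ranger (version 4 per the file headers, but 2.1.1 and mm10 in the submitters' processing notes). Their annotation was not given in the sources used here. Coordinates were taken from GENCODE M21 (GRCm38) by gene ID, which matched all 73 genes.

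Barcodes were filtered and placed in classes as the report states, and UMIs were summed per class and library (Python 3.11.15, scanpy 1.11.5). Sums were fitted with edgeR 4.0.16 (R 4.3.3) with TMM scaling, filterByExpr, a robust quasi-likelihood fit and a library block (5 residual degrees of freedom, biological coefficient of variation 0.133). The replicate numbers pair the sums, since all classes of a library come from the same mice. The SE is the log2 difference divided by the square root of F. Genes given in full are the tested members whose highest class had a mean of at least 20 CPM and 13 listed by name, most of which also meet that limit, 30 in all. The other members are given by counts, ranges and name. Some members and partners enter the counts and are not reported here by name or value. Marker sums, purity and unclassed barcodes are on raw CPM. Free RNA was profiled in barcodes of 100 UMIs or fewer (4.90% and 4.11% of all UMIs). Intervals are exact binomial and cover counting error only. In simulated counts for the RPE comparison (14613 genes), 200 genes were changed and all others had equal class levels. Recovery was 40.8% of genes changed 2-fold and 92.8% of those changed 4-fold, with 5 false calls. A 2-fold change lies exactly at the size required for a call. Far fewer genes were changed than were called in the real comparison (26.1% higher and 24.6% lower), so these figures do not carry over to it. The genes, gene lists and tests were chosen with earlier results of these data known. Alternatives were DESeq2 1.42.0, RLE scaling, no filter, doublets removed, other barcode, marker and purity limits, free RNA removed, no replicate block and leaving out a sum.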

Additional observations from a re-analysis of the deposited data

Results flagged for a closer look

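Among transporter genes with at least 3 UMIs per library in the barcodes that fell in no class, 4 had a higher raw CPM there than in any class in both libraries. Slc6a14, a broad amino acid carrier of epithelia, stood at 21.3 and 25.6 raw CPM there (72 and 114 UMIs), against at most 0.0263 and 2.86 in a class. Slc16a11 stood at 15.7 and 18.2 raw CPM (53 and 81 UMIs), against at most 1.57 and 3.25. Slc38a9, a lysosomal amino acid sensor, stood at 10.4 and 11 raw CPM (35 and 49 UMIs), against at most 5.60 and 7.62. Slc16a12 rested on few counts, 1.48 and 2.92 raw CPM from 5 and 13 UMIs, against at most 1.06 and 2.21. The summed raw CPM of keratin epithelial markers in these barcodes was 2133 and 4681, and in the classes at most 50.1, while rod markers summed to 520 and 1142. Their part in the transporter values was not tested.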

How the results depend on the processing

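Over 10 alternatives with both libraries, 244 of 260 counts of called genes stayed within 1.5 times the reported count. Removing 10% of each sum along the free RNA profile gave 17 transporter genes higher in fibroblasts and 4, 8 and 4 lower in the melanocyte, endothelial and mural classes, and for partner genes 12 higher in mural cells and 0, 2, 5 and 3 lower in fibroblasts, melanocytes, endothelial and mural cells. With a marker purity of 90%, 13 transporter genes were lower in the melanocyte class and 13 in the mural class. Partner genes lower in fibroblasts numbered 2 with doublets removed, with that purity, with DESeq2 and with no replicate block, and 8 were lower in macrophages with no filter on low counts. The fit with no replicate block moved no transporter count by over 1.5 times (21 higher in the RPE). Free RNA removal also gave 21 higher in the RPE, with Slc16a8 no longer among them. Leaving out 1 sum of the tested class gave, for transporter genes higher and lower, 10 to 11 and 3 to 5 in fibroblasts, 10 to 13 and 8 to 16 in melanocytes (16 without library 2), 21 to 22 and 12 to 15 in the RPE, 9 to 11 and 10 to 11 in endothelial cells, 9 and 6 to 8 in mural cells and 10 to 13 and 8 to 12 in macrophages. For partner genes these were 9 and 0 to 1 (0 without library 2), 5 and 4 to 8 (4 without library 1), 9 to 12 and 12, 7 and 8, 4 to 7 (4 without library 1) and 4, and 6 to 8 and 5 to 6, in the same order. Of 300 values of the 30 named genes, 292 kept direction and side of the threshold and 0 reversed. With free RNA removed, 3 log2 differences over melanocytes no longer passed, Slc16a8 at 8.96 (edgeR adjusted p = 0.290), Slc6a13 at 7.88 (0.168) and Slc6a20a at 7.92 (0.0939). The melanocyte sum of library 1 held 0 UMIs of each after the subtraction. Another 5 passed: Slc6a6 (1.05), Slc7a2 (1.48) and Slc7a8 (1.15) at the purity of 90%, and Slc7a2 (1.17) and Slc7a8 (1.00) at 20 marker UMIs. The cause was not tested.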
